A study of Homo sapiens with 6 samples.

Results

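The genes described here encode the human aminoacyl-tRNA synthetases and the scaffold proteins AIMP1 and AIMP2, read in 143B cells, a human osteosarcoma line. Members were taken by name, but with earlier results of these data known. They are protein-coding genes of the deposited table whose symbol has the usual form for a synthetase, plus both scaffolds. TARSL2, a further threonine synthetase gene, has a symbol of another form and is no member. This gave 39 genes of the 58825 in the table, of which 18 encode cytosolic enzymes or their subunits, 17 mitochondrial enzymes, 2 (GARS and KARS) enzymes that serve both compartments, and 2 the scaffolds. All 39 had enough counts to be tested. Poly(A) RNA was sequenced from 3 libraries of cells given 80 nmol/L of a negative control siRNA and from 3 libraries of cells given 80 nmol/L of a siRNA against SIGLEC15, a sialic acid-binding receptor of the immunoglobulin superfamily. Both groups were 143B cells transfected with the same reagent and collected 36 h later, with no untransfected group. The comparison asks how transcript levels differ between knockdown and control cells. Nothing in the labels says that replicate libraries were grown as separate cultures. The p-values therefore rest on a spread between libraries that may be only technical.

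Aminoacyl-tRNA synthetases join each amino acid to its matching transfer RNA, the step that lets ribosomes read the genetic code. Human cells hold a cytosolic set and a mitochondrial set, encoded by separate nuclear genes for nearly all amino acids, and several of the cytosolic enzymes are bound into a multisynthetase complex by AIMP1, AIMP2 and EEF1E1. Many cytosolic members are known targets of ATF4, the transcription factor of the integrated stress response that is made when amino acids or the folding capacity of the endoplasmic reticulum run short.

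Libraries held between 57966691 and 67655254 counts in genes, of which the members made up 0.816% ± 0.0108 in control cells and 0.758% ± 0.0105 in cells given the SIGLEC15 siRNA (SD, n = 3). Control library 3 and SIGLEC15 siRNA library 1 stood apart from the other 4 on the second principal component, which held 20.0% of the variance, while the first (33.4%) separated the groups. SIGLEC15 itself was read with 12, 10 and 22 counts in the control libraries and 12, 8 and 6 in the SIGLEC15 siRNA libraries. Its groups overlapped, the log2 difference was -0.82, and an exact two-sided permutation test gave p = 0.20, where the smallest p this design allows is 0.10. The knockdown was therefore not detectable at this depth. The 9 markers of mesenchymal cells had summed FPKM of 571 to 613 in control and 565 to 615 in SIGLEC15 siRNA libraries, most of it VIM, and COL1A2 and RUNX2 had control means under 1 FPKM. Of the 8 markers tested 7 had groups that did not overlap, 5 higher and 2 lower, beside 12.9% of all genes higher and 13.7% lower. At an adjusted p under 0.05 (edgeR) there were 2 of 8, both higher, beside 4.65% of all genes in either direction. SPARC rose from a mean of 62.6 to 109.4 FPKM and COL1A1 from 1.10 to 1.78 FPKM (adjusted p = 0.00137 and 0.0134, edgeR), and the part of these marker differences in the members' values was not tested. Among blood cell markers PTPRC and CD3E were at 0, and CD68 carried nearly all of the sum (16.4 to 22.0 and 11.2 to 18.4). The 6 epithelial markers summed to 211 to 255 FPKM in control and 223 to 243 FPKM in SIGLEC15 siRNA libraries, most of it KRT18 and KRT8, with EPCAM at means of 4.10 and 3.41 FPKM and CDH1 at 0.

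One synthetase fell: NARS, which charges asparagine to its transfer RNA in the cytosol, was 2.06-fold lower in the SIGLEC15 siRNA group (95% interval 1.82 to 2.34, n = 3 libraries per group). It was the only member to pass the edgeR quasi-likelihood test at a Benjamini-Hochberg adjusted p under 0.05 over 18910 genes, which makes 1 of 39 members (2.56%) beside 4.65% of all genes tested. No member rose, beside 2.22% of all genes that rose and 2.43% that fell. In bulk RNA, fewer cells that express a gene and less of its RNA per cell cannot be told apart.

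NARS (ENSG00000134440) lies at chr18:57600656-57621836 on the minus strand in the deposited table, whose genome build is not given in the sources used here. Its level was 432.4, 430.8 and 414.8 CPM (counts scaled to each library's total with TMM factors) in the control libraries and 202.7, 190.9 and 226.3 CPM in the SIGLEC15 siRNA libraries. Every SIGLEC15 siRNA library lay far below every control library, and the gap between the groups was many times the spread within either. The log2 fold change was -1.04 with a standard error of 0.0761 and an adjusted p of 0.0018 (edgeR). By FPKM, the authors' fragment count scaled for gene length and library size, NARS went from 87.5 ± 2.91 to 42.4 ± 3.33 (SD, n = 3). The mitochondrial enzyme for the same amino acid, NARS2, had 38.3, 39.0 and 38.8 CPM in control and 37.8, 39.2 and 36.4 CPM in SIGLEC15 siRNA libraries. These ranges overlapped, and the log2 difference of NARS2 was -0.03 (95% interval -0.21 to 0.14). Without control library 3 and SIGLEC15 siRNA library 1 the log2 fold change of NARS was -1.05 and its adjusted p 0.053 (edgeR, 2 libraries against 2), so the call was lost there while the size was not. In that setting no member was called.

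The other members differed by less. The next 4 by p-value were SARS, AARS, AIMP2 and YARS, and none of them passed (adjusted p = 0.0598, 0.0761, 0.0781 and 0.0791, edgeR). SARS, the serine enzyme, had 811.1, 762.3 and 838.6 CPM in control and 693.8, 618.4 and 647.2 CPM in SIGLEC15 siRNA libraries. AARS, which charges alanine, had 430.1, 398.1 and 438.4 CPM in control and 367.6, 350.3 and 344.5 CPM in SIGLEC15 siRNA libraries. YARS, the tyrosine enzyme, had 294.5, 308.8 and 318.7 CPM in control and 248.0, 232.4 and 270.5 CPM in SIGLEC15 siRNA libraries. For these 3 genes the groups did not overlap and all SIGLEC15 siRNA libraries were the lower ones. Their log2 differences were -0.30 for SARS (standard error 0.0676), -0.25 for AARS (0.0622) and -0.30 for YARS (0.0738).

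AIMP2, a scaffold that holds lysyl-tRNA synthetase in the multisynthetase complex, had the highest log2 difference of all members. It was read at 106.6, 102.6 and 118.8 CPM in control and 148.2, 157.5 and 127.5 CPM in SIGLEC15 siRNA libraries, again with no overlap but in the other direction. The log2 difference was 0.40 with a standard error of 0.0995. AIMP1, the other scaffold, had ranges of 83.7 to 93.9 CPM and 80.7 to 97.2 CPM, and its log2 difference of 0.0036 changed sign with the scaling. EEF1E1, the remaining scaffold of the complex and no member by the rule, had a log2 difference of 0.07 (adjusted p = 0.678, edgeR). The 8 enzymes of the complex (DARS, EPRS, IARS, KARS, LARS, MARS, QARS and RARS) had a median log2 difference of -0.021, none was called, and all 8 had 95% intervals within 0.5 of 0 on the log2 scale.

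Across the 39 members the intervals were narrow. In 33 of them (84.6%) the 95% interval of the log2 difference lay within 0.5 of 0, a change of at most 1.41-fold in either direction, beside 34.1% of all genes tested. The 6 members whose interval reached further were NARS, WARS, AIMP2, EARS2, HARS2 and LARS2. LARS2, the mitochondrial leucine enzyme, was the least precise, with 72.5, 99.2 and 107.2 CPM in control and 105.2, 105.1 and 65.4 CPM in SIGLEC15 siRNA libraries. Both of its groups held a library far below the other 2. The groups did not overlap in CPM for 13 members (33.3%), beside 26.6% of all genes, and 13 members (33.3%) had an unadjusted p under 0.05, beside 19.1%. These shares were not matched for level. The median control level was 26.1 FPKM for the members and 2.24 FPKM for all genes tested.

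**Figure D1:**
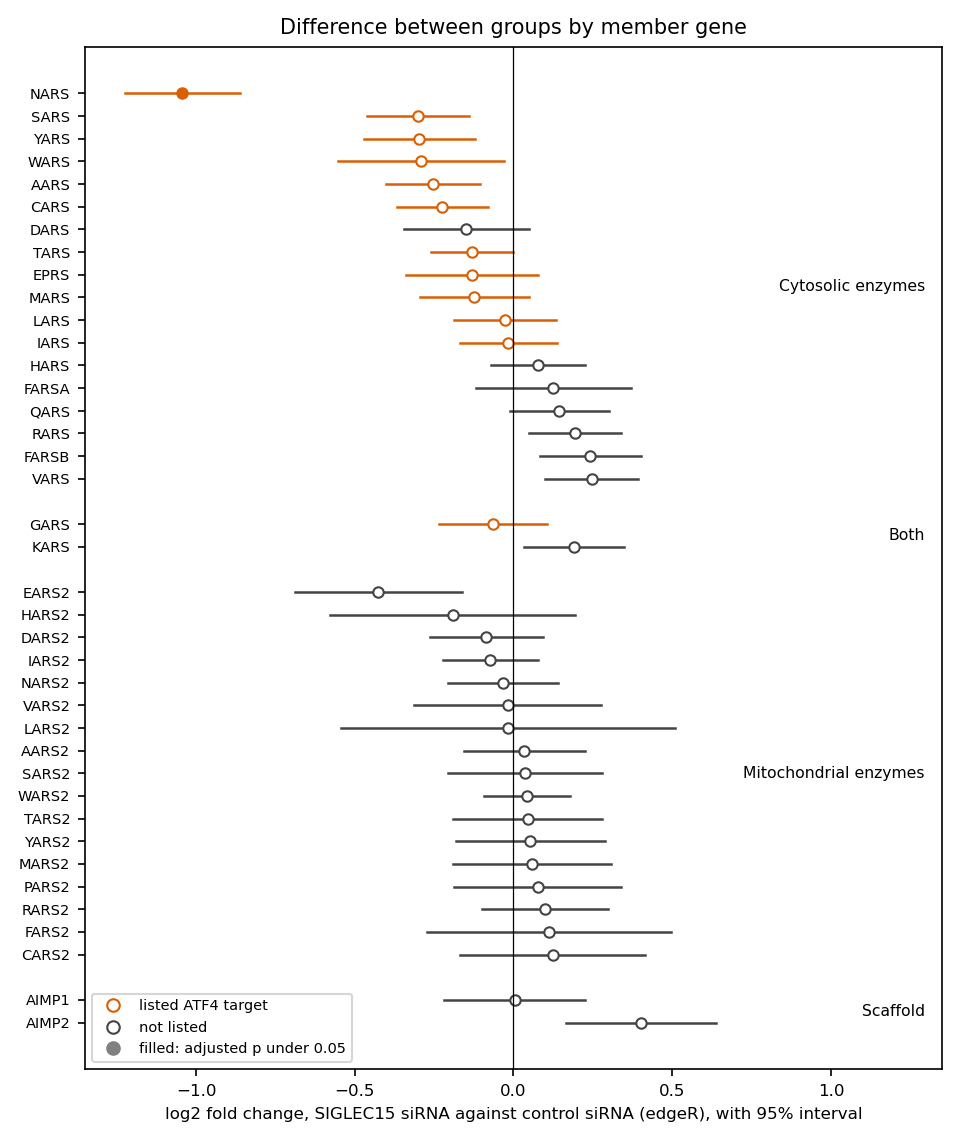
Log2 fold change of each of the 39 members, SIGLEC15 siRNA against control siRNA, with its 95% interval (edgeR, 3 libraries per group), ordered within cytosolic, dual, mitochondrial and scaffold genes. Orange marks synthetases listed as ATF4 targets and a filled point marks an adjusted p under 0.05. NARS at -1.04 is the only filled point, and all 12 orange points lie below 0.

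Most cytosolic enzymes lay below 0 and mitochondrial enzymes lay on both sides of it, with small differences in both sets. Of the 18 cytosolic genes 12 had a log2 difference below 0, the median was -0.13, and 1 was called. At an unadjusted p under 0.05 there were 10 of 18 (55.6%), 7 lower and 3 higher, beside 9.74% of all genes lower and 9.35% higher. Of the 17 mitochondrial genes none was called, 7 (41.2%) had a log2 difference below 0 and the median was 0.037. Below 0 lay 66.7% of the cytosolic genes and 50.9% of all genes tested. EARS2 was the only mitochondrial gene at an unadjusted p under 0.05 (1 of 17, 5.88%), and 14 of 17 had an interval within 0.5 of 0. The median over all genes tested was -0.0064. With control library 3 and SIGLEC15 siRNA library 1 left out, the cytosolic median was -0.12 and the mitochondrial median 0.0014.

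EARS2, which charges glutamate in mitochondria, had 20.7, 21.48 and 20.03 CPM in control and 13.79, 16.98 and 15.57 CPM in SIGLEC15 siRNA libraries. The groups did not overlap, but the log2 difference of -0.43 (standard error 0.110) did not pass (adjusted p = 0.0867, edgeR). EARS2 starts 10 bases from UBFD1, a gene on the opposite strand with which it shares 370 exon bases. UBFD1 was called higher, with a log2 fold change of 2.17 (adjusted p = 0.00131, edgeR), from a mean of 14.6 CPM to 65.5 CPM. Neither the annotation behind the counts nor the use of strand is given in the sources used here. Reads in any shared bases therefore cannot be told apart. In all, 16 members had a tested gene on the opposite strand starting within 1000 bases, and UBFD1 was the only called partner among them.

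By level, the cytosolic enzymes stood above the mitochondrial ones. With the summed counts as library total, the deposited FPKM imply a length that was, in the median gene, 1.19 times the union of its annotated exons. A larger library total behind the FPKM would give the same factor, and which of them applies was not tested. Division by the union of exons understates genes with many alternative exons. For 34 members the factor was within 10% of that median, and for RARS2 (1.39), DARS (1.41), AARS2 (1.45), LARS2 (2.17) and FARSB (2.47) it was larger, so their FPKM are understated further. Levels were therefore also computed per kilobase of the longest coding transcript. SARS was the highest member on both scales, at 175.4 ± 7.57 FPKM in control, followed by GARS, the glycine enzyme, at 142.8 ± 3.99 FPKM and TARS, the threonine enzyme, at 114.6 ± 2.80 FPKM (SD, n = 3). These 3 were apart from each other in the control libraries, while SARS (138 to 149 FPKM) and GARS (125 to 148 FPKM) overlapped in the SIGLEC15 siRNA libraries. NARS was the fourth highest in control and, at 42.4 FPKM, lay below EPRS (51.7 FPKM) and the mitochondrial WARS2 (53.0 FPKM) in the SIGLEC15 siRNA group. Per kilobase of the longest coding transcript NARS (66.6) lay below WARS2 (86.3) in that group but not below EPRS (65.3). RARS at 64.4 ± 1.86 FPKM and IARS at 63.6 ± 3.23 FPKM were neighbours whose control values overlapped. HARS, the histidine enzyme, was the lowest cytosolic gene at 10.3 ± 0.520 FPKM, and KARS stood at 57.2 ± 3.19 FPKM.

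Among mitochondrial enzymes the levels ran from WARS2, the tryptophan enzyme, at 51.4 ± 1.93 FPKM down to FARS2, the phenylalanine enzyme, at 1.53 ± 0.165 FPKM in control. IARS2 was next to WARS2 at 33.7 ± 1.29 FPKM with no overlap between them. The order at the lower end depended on the length used: CARS2 lay below VARS2 by FPKM (means of 2.21 and 2.66) but above it per kilobase of the longest coding transcript (14.7 and 6.59 CPM per kilobase). FARS2 and EARS2 were level on that scale in control (5.22 and 5.23), and EARS2 was the lower in the SIGLEC15 siRNA group (3.90 against 5.64). WARS2 and FARS2 had log2 differences of 0.04 and 0.11 and adjusted p of 0.763 and 0.778 (edgeR).

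**Figure D2:**
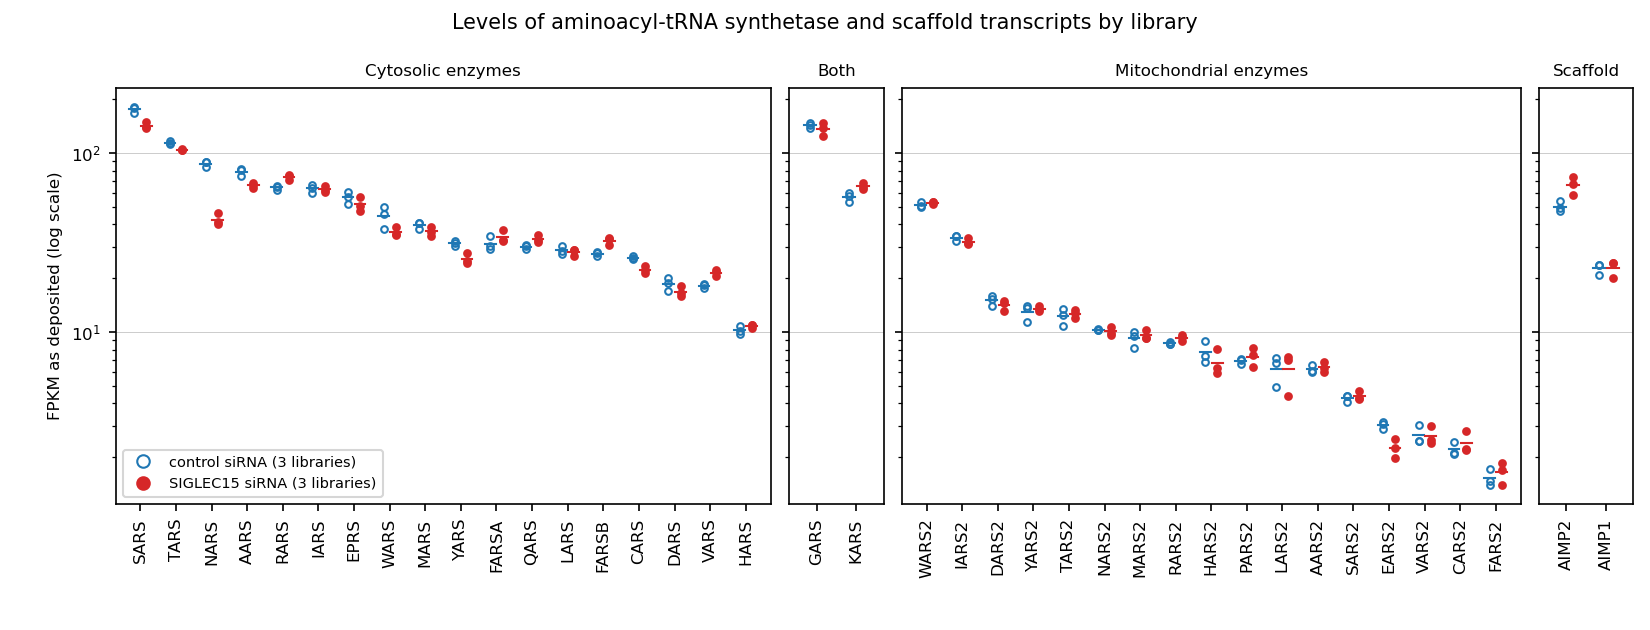
Deposited FPKM on a log axis for each member in each library, open blue for the 3 control and filled red for the 3 SIGLEC15 siRNA libraries, with a bar at each group's mean. Cytosolic genes run from SARS at 175.4 FPKM to HARS at 10.3 FPKM in control and mitochondrial genes from WARS2 at 51.4 FPKM to FARS2 at 1.53 FPKM. NARS is the gene whose groups stand furthest apart.

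For each amino acid the cytosolic enzyme can be set beside its mitochondrial counterpart. By deposited FPKM the cytosolic gene was higher in control for 16 of 17 amino acids that have a gene for each compartment. The exception was tryptophan, where WARS had 0.866 ± 0.127 times the FPKM of WARS2, and per kilobase of the longest coding transcript this ratio was 1.30, so that all 17 then had the cytosolic gene higher. The highest ratio was that of serine, where SARS stood 41.0 ± 3.15 times above SARS2 in control and 32.4 ± 0.750 times above it in the SIGLEC15 siRNA group. For asparagine the ratio of NARS to NARS2 was 8.70, 8.52 and 8.23 in the control libraries and 4.13, 3.75 and 4.78 in the SIGLEC15 siRNA libraries. No SIGLEC15 siRNA library came near the control values.

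Of the 18 ratios compared (phenylalanine gives 2, one for each subunit of its cytosolic enzyme) 6 were lower in every SIGLEC15 siRNA library than in any control library. These were the ratios of alanine, cysteine, asparagine, serine, tryptophan and tyrosine. In 3 the ratio was higher in every SIGLEC15 siRNA library, namely glutamate (EPRS over EARS2), isoleucine and arginine. For glutamate both genes lay below 0, EPRS at a log2 difference of -0.13 and EARS2 at -0.43. For isoleucine they did so too, IARS at -0.016 and IARS2 at -0.073. Over all genes 26.6% had groups that did not overlap in CPM, a share for single genes and not for ratios. The sum over the cytosolic genes was 963, 944 and 933 FPKM in control and 856, 818 and 852 FPKM in SIGLEC15 siRNA libraries, a lower value in each of the latter. The mean difference was -105.2 FPKM, or -11.1%, of which NARS made up -45.1 FPKM and SARS -32.9 FPKM. The mitochondrial sum was 194.5 ± 3.24 FPKM in control and 194.4 ± 1.65 FPKM in the SIGLEC15 siRNA group (SD, n = 3). The ratio of both sums was 4.86, 4.87 and 4.87 in control and 4.44, 4.18 and 4.37 in SIGLEC15 siRNA libraries, with no overlap. Without NARS the ratio was 4.42 ± 0.0128 in control and 4.11 ± 0.130 in the SIGLEC15 siRNA group.

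**Figure D3:**
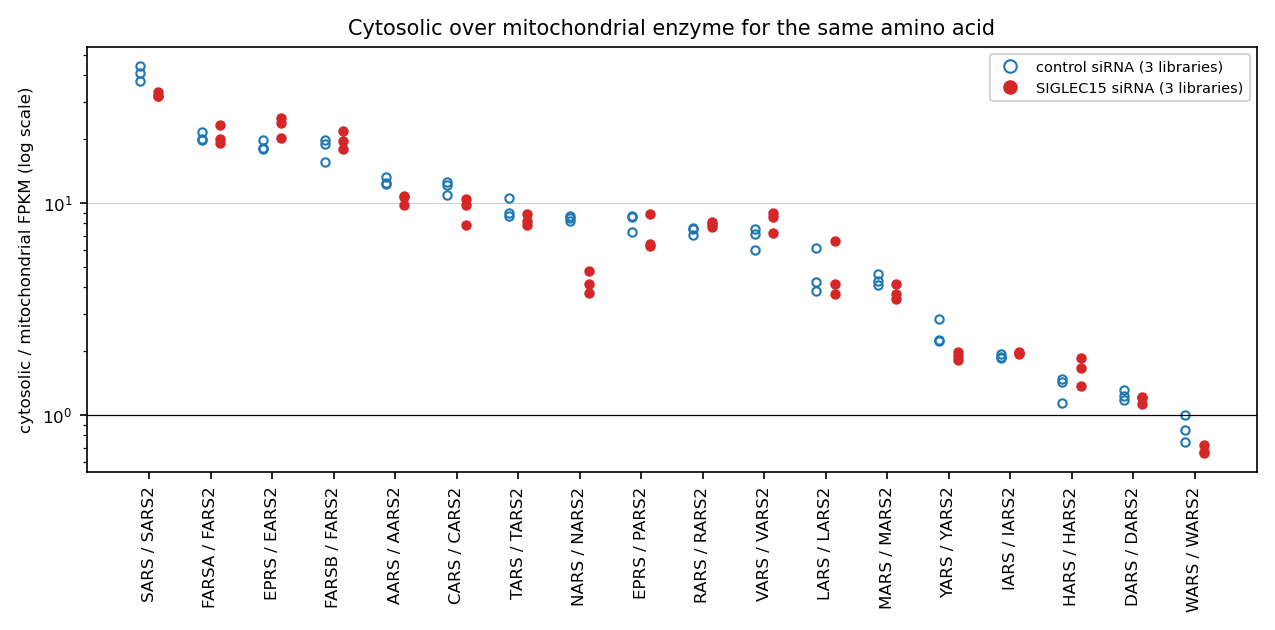
Ratio of cytosolic to mitochondrial FPKM for the same amino acid in each library, on a log axis with a line at 1. Open blue points are the 3 control and filled red points the 3 SIGLEC15 siRNA libraries. NARS over NARS2 goes from 8.48 to 4.22 on average, and WARS over WARS2 is the only ratio below 1.

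The members were also split by whether they are listed as ATF4 targets, a listing from general knowledge of the integrated stress response. The 12 listed synthetases (AARS, CARS, EPRS, GARS, IARS, LARS, MARS, NARS, SARS, TARS, WARS and YARS) all had a log2 difference below 0, beside 50.9% of all genes. Their median was -0.18, or -0.13 without NARS, and 1 of them was called (8.33%), beside 4.65% of all genes. At an unadjusted p under 0.05 there were 7 lower (58.3%) and 0 higher, beside 9.74% and 9.35% of all genes. The 8 cytosolic or dual members that are not listed (DARS, FARSA, FARSB, HARS, KARS, QARS, RARS and VARS) had a median of 0.17. Of these 8, 7 lay above 0 and none was called. At an unadjusted p under 0.05, 4 were higher (50.0%), beside 9.35% of all genes. VARS, the valine enzyme, was among these, with 126.5, 129.8 and 124.8 CPM in control and 158.9, 148.3 and 144.8 CPM in SIGLEC15 siRNA libraries. Its groups did not overlap, and its adjusted p was 0.0803 (edgeR). The split is a description with no test, since both lists were written with earlier results of these data known. Without control library 1, or without SIGLEC15 siRNA library 2, 10 of the 12 listed genes lay below 0.

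The median of the listed enzymes, though not each of them, lay lower in each SIGLEC15 siRNA library. Relative to the control mean, it was 0.02, 0.01 and -0.03 in the control libraries and -0.17, -0.25 and -0.15 in the SIGLEC15 siRNA libraries, in log2 CPM. GARS and IARS were above every control library in SIGLEC15 siRNA library 3, at 707.5 and 583.3 CPM. The other cytosolic or dual enzymes had -0.00072, 0.02 and -0.02 in control and 0.24, 0.09 and 0.14 in SIGLEC15 siRNA libraries. The mitochondrial medians stayed between -0.0093 and 0.037 in all 6 libraries. WARS, the cytosolic tryptophan enzyme, was a listed gene whose groups overlapped (288.3 to 378.4 CPM against 258.4 to 296.3 CPM), with control library 3 the lowest control. Its log2 difference was -0.29, and -0.45 without control library 3 and SIGLEC15 siRNA library 1.

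ATF4 binds C/EBP-ATF response elements, whose core was searched for as TGATGNAA on both strands of RefSeq promoter windows (GRCh38.p14) from 250 bases before to 50 bases after each gene's start. The word was in 4.46% of 27305 genes, in 7 of the 10 listed synthetases that have a window there, in 0 of 6 of the other cytosolic or dual members and in 1 of 14 mitochondrial members (YARS2). SARS, WARS and EPRS were the listed genes with a window and no match. Of all members 32 had a window, and 8 held the word. The listing of ATF4 targets rests in part on such elements, so the overlap of list and word is not independent. The stretches around the word are printed for the 7 listed members because these genes lay on the same side of 0, although only NARS passed the test. Capitals mark the word as it reads 5′ to 3′ on the gene's strand, either TGATGNAA or its reverse complement. They lie at chr18:57621804-57621833 (minus strand) for NARS, chr16:70289675-70289704 (minus) for AARS, chr11:3057407-3057436 (minus) for CARS, chr7:30594834-30594863 (plus) for GARS, chr9:92293692-92293721 (minus) for IARS, chr12:57488053-57488082 (plus) for MARS and chr5:33440956-33440985 (plus) for TARS.
NARS: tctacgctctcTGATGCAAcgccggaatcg
AARS: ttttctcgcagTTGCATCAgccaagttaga
CARS: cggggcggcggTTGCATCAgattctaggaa
GARS: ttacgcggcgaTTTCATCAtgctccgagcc
IARS: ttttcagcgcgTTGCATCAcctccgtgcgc
MARS: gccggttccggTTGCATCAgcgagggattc
TARS: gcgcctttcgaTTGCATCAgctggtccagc

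In 6 of these the word reads TGATGCAA on one strand or the other, and in GARS it reads TGATGAAA. The 8 members with the word had a median log2 difference of -0.13, and the 24 members with a window and no word had 0.052. Among the latter, SARS, at -0.30, had the smallest adjusted p. These groups were not matched for compartment. The 9 cytosolic or dual members with a window and no word had a median of 0.13, with 6 above 0 and 3 below. A match is a stretch of letters and not a measured binding site.

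Of 25 other listed ATF4 and integrated stress response targets tested, 4 fell (16.0%) and none rose, beside 2.43% of all genes that fell and 2.22% that rose. The 4 were CHAC1, which breaks down glutathione, DDIT4, an inhibitor of mTORC1, CEBPG, a dimer partner of ATF4, and ASNS, the enzyme that makes asparagine. ASNS supplies the amino acid that NARS uses, and it had 276.0, 294.3 and 298.5 CPM in control and 196.2, 162.5 and 167.8 CPM in SIGLEC15 siRNA libraries. Both genes of the asparagine pair thus lay lower in all 3 SIGLEC15 siRNA libraries, ASNS by a log2 fold change of -0.72 (standard error 0.0865, adjusted p = 0.00858, edgeR). CHAC1, DDIT4 and CEBPG had log2 fold changes of -0.82, -0.70 and -0.63 with adjusted p of 0.00536, 0.00719 and 0.00806 (edgeR). The median of the 25 was -0.15, and 12 were lower and 1 higher at an unadjusted p under 0.05, beside 9.74% and 9.35% of all genes. This list too was written with earlier results of these data known, so its shares are a description with no test.

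ATF4, named here after its values were seen because it heads the list, had 1154, 1154 and 1258 CPM in control and 1026, 911.4 and 918.5 CPM in SIGLEC15 siRNA libraries. Its groups did not overlap, and its log2 difference of -0.32 did not pass (adjusted p = 0.0572, edgeR). ATF4 is controlled largely at translation, which these RNA data do not measure. The word TGATGNAA was in 6 of the 20 non-synthetase list genes with a window (30%). They include 3 of the 4 called genes, ASNS (chr7:97872458-97872487, minus), CEBPG (chr19:33374060-33374089, plus) and CHAC1 (chr15:40953251-40953280, plus), shown for comparison with NARS.
ASNS: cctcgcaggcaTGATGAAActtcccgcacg
CEBPG: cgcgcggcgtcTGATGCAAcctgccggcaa
CHAC1: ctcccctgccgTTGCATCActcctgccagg

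Of 8 genes for the kinases and phosphatase regulators of the integrated stress response, PPP1R15A, the inducible subunit that lets eIF2 be dephosphorylated, fell by a log2 fold change of -0.73 (adjusted p = 0.00447, edgeR), and none rose. Called genes thus made up 1 of 8 here, beside 4.65% of all genes. PPP1R15A was read at 223.7, 201.5 and 222.9 CPM in control and 129.6, 125.9 and 136.5 CPM in SIGLEC15 siRNA libraries. Of 13 regulators of MYC and mTORC1, RRAGD, a GTPase that recruits mTORC1 to lysosomes, rose (0.67, adjusted p = 0.0197, edgeR) and RPTOR, an mTORC1 subunit, fell (-0.42, adjusted p = 0.0218, edgeR), or 2 of 13 beside the same 4.65%.

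**Figure D4:**
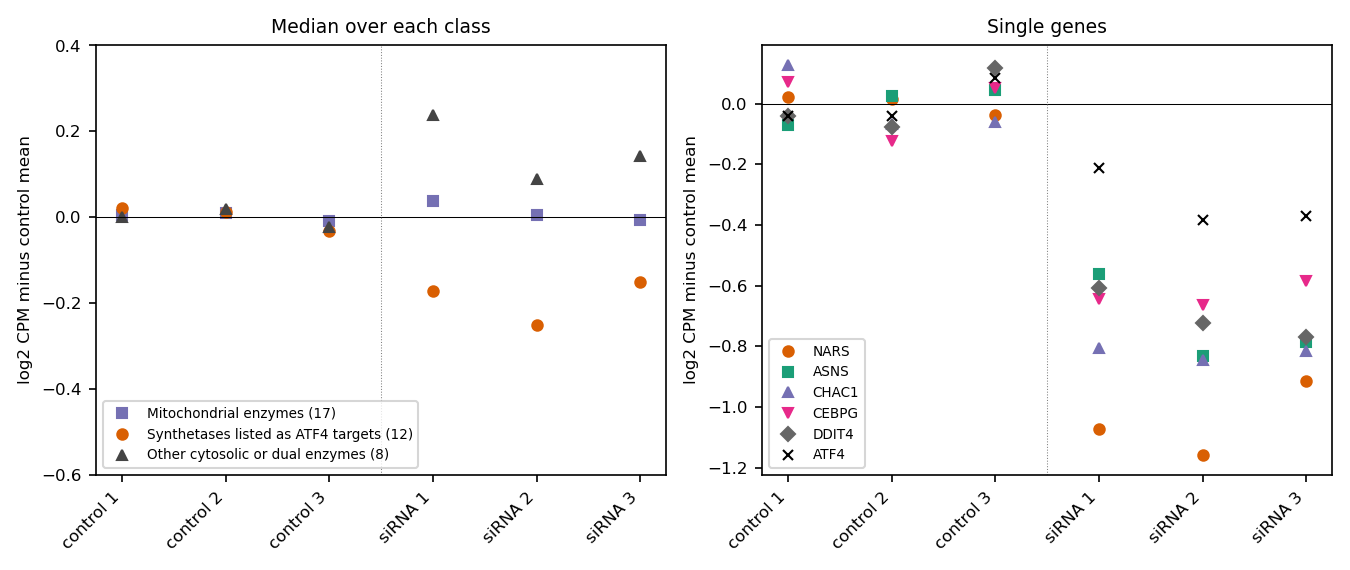
Log2 CPM minus the control mean in each of the 6 libraries. Left, the median over 17 mitochondrial enzymes, 12 synthetases listed as ATF4 targets and 8 other cytosolic or dual enzymes; right, NARS, ASNS, CHAC1, CEBPG, DDIT4 and ATF4. The listed synthetases lie at -0.15 to -0.25 in the SIGLEC15 siRNA libraries, and the 6 single genes lie below all control libraries in each of them.

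By GENCODE 29 exons several members share bases with a neighbour, which limits how firmly their counts can be read. SARS2, the denominator of the serine ratio, shares 46.2% of its exon bases with AC011455 on the same strand, which was read at a mean of 0.333 counts per library and not tested. AIMP2 shares 28.9% of its exon bases with EIF2AK1 on the opposite strand, whose log2 difference was 0.10. VARS2 shares 22.0% with GTF2H4 on its own strand, and MARS shares 519 bases with ARHGAP9 and 355 with DDIT3, both on the opposite strand. By the same exons HARS and HARS2 share 437 bases across their common start. In the deposited table their starts lie 107 bases apart, which allows only a smaller overlap. NARS shares exon bases with no other GENCODE 29 gene that had a count in these libraries, and genes without a count were not examined. Of 16 pseudogenes named for members none had a count in any library.

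The number of called members depended on the test. DESeq2 called 12 members (beside 17.1% of all genes it tested), 5 higher (FARSB, RARS, VARS, KARS and AIMP2) and 7 lower (AARS, CARS, NARS, SARS, WARS, YARS and EARS2). edgeR restricted to genes with a mean of at least 5 FPKM called 5 of the 34 members it tested, all lower (AARS, CARS, NARS, SARS and YARS), beside 10.8% of all genes called and 5.83% called lower. The limma-trend test called 4 members on log2(FPKM + 1), beside 7.99% of all genes (4.26% lower), and 2 on log2(FPKM + 0.1), beside 7.9% (4.22% lower), all of them lower. CARS, the cysteine enzyme, had 308.7, 316.6 and 309.9 CPM in control and 283.0, 259.2 and 258.4 CPM in SIGLEC15 siRNA libraries, with a log2 difference of -0.22. FARSB, a subunit of the cytosolic phenylalanine enzyme, had 228.1, 232.0 and 224.5 CPM in control and 282.1, 249.5 and 278.5 CPM in SIGLEC15 siRNA libraries, with a log2 difference of 0.24. The groups did not overlap for either gene, nor for RARS (0.19) and KARS (0.19), the arginine and lysine enzymes, whose SIGLEC15 siRNA libraries were all the higher ones. GARS, the other dual enzyme, had overlapping groups (667.1 to 695.1 CPM and 603.4 to 707.5 CPM) and was called in no setting. All calls in these settings had the direction of the edgeR estimate given above or in the plot of differences by gene.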

How the data were processed

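Per the labels' protocols, poly(A) RNA was read by paired-end Illumina NovaSeq sequencing. The authors deposited whole-number counts and FPKM per gene and library. Tools named in the submitters' processing notes are HISAT, StringTie and edgeR. The sources used here do not give the build, annotation, counting method or strand use. Groups came from the labels.

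The count test was that of edgeR 4.0.16, run in R 4.3.3 (filterByExpr with a minimum count of 10 and a minimum total of 15, TMM, quasi-likelihood F test, all 6 libraries, no covariate, Benjamini-Hochberg over 18910 genes), after a check on simulated data. Standard errors are the log2 fold change over the square root of F. Levels used the deposited FPKM. Members and lists were chosen with earlier results of these data known. Named were members called, the 4 next by p, highest and lowest of each compartment and amino acid ratio, AIMP1, AIMP2, GARS, KARS, members whose call changed under an alternative, and up to 4 called genes per other list. Other genes were named for a role, overlap or interval after their values were seen. Alternatives were other scalings and filters, DESeq2 1.42.0, limma-trend 3.58.1 on log2 FPKM (pseudocount 1 or 0.1, genes averaging 1 FPKM or more), a replicate block, and libraries left out. Promoters came from RefSeq (GRCh38.p14) and exon overlaps from GENCODE 29, where 15 of 39 members have the deposited position.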

Additional observations from a re-analysis of the deposited data

How the results depend on the processing

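Among the 15 alternatives, NARS kept its direction in all and its call in 14, with log2 fold changes from -1.11 to -0.99; the call was lost (adjusted p = 0.053, edgeR) when both control library 3 and SIGLEC15 siRNA library 1 were left out, a setting chosen after seeing the data. Over all genes edgeR called 879, 419 higher and 460 lower. DESeq2 called 2916 (1469 higher, 1447 lower), the replicate block 50 (15 higher, 35 lower), and the fit without both libraries 70 (27 higher, 43 lower). Leaving out each library in turn gave 260 to 431 (108 to 189 higher, 151 to 242 lower).

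Called members numbered 5 with a mean FPKM of at least 5 (5 lower, 5 cytosolic), 12 with DESeq2 (5 higher, 7 lower, 9 cytosolic, 1 mitochondrial), 4 with limma-trend on log2(FPKM + 1) and 2 on log2(FPKM + 0.1), in both cases all lower and cytosolic, and 0 without both libraries. With each library left out in turn the count was 1. The mitochondrial median was 0.0014 without both libraries and 0.0042 to 0.047 with each left out. The median of the listed ATF4 targets was -0.23 without both and -0.23 to -0.16 with each left out.

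The ratio of summed cytosolic to mitochondrial FPKM was also computed in other ways, given here for control and then SIGLEC15 siRNA libraries. It was 5.90 and 5.37 with GARS and KARS counted as cytosolic, and 5.75 and 5.11 by the longest coding transcript. It was 4.42 and 4.11 without NARS, and 6.62 and 5.95 without WARS2. The ratio of the medians was 4.85 ± 0.453 in control and 4.51 ± 0.535 in SIGLEC15 siRNA libraries (SD). That difference was smaller than the SD of either group, so by medians a lower ratio was not resolved. AIMP1 changed sign with upper-quartile scaling (-0.012), when genes averaging under 5 FPKM were left out (-0.0085) and in the range with each library left out (-0.052 to 0.076), as did SARS2 (-0.025 to 0.068). The cause of these shifts was not tested.

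The replicate numbers did not pair the libraries: same-numbered libraries correlated at -0.071, 0.0066 and -0.12, and none correlated best with its own number. With the replicate number as a block, NARS was the only member called (adjusted p = 0.045, edgeR).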

Other observations

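Genes that work beside the synthetases were read from lists of related factors. Of 16 factors associated with aminoacylation none was called, the median log2 difference was -0.033, and 4 had an unadjusted p under 0.05. Their roles include transfer RNA editing, export, end processing and indirect charging. The list also holds EEF1E1 and the synthetase TARSL2, whose log2 difference was -0.11. None of 10 cytosolic translation elongation and termination factors was called (median -0.030, 2 at an unadjusted p under 0.05). None of 19 mitochondrial translation factors was called by edgeR either (median 0.052, 5 at an unadjusted p under 0.05), beside 19.1% of all genes at that level. Their median lay close to that of the mitochondrial synthetases, 0.037.

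The word AGGCTCA in 3′ UTRs had been singled out from these same data, so its shares are a description. It was in the annotated 3′ UTR of 12.3% of 13778 tested genes, of 29.1% of the genes called lower and of 9.65% of those called higher. Of the 39 members 4 held it, CARS, CARS2, HARS2 and LARS2, and none of these was called by edgeR. The shares were not matched for length. The median 3′ UTR was 1373 bases over all tested genes, 1560 in those called lower, 1915 in those called higher and 642 in the members. NARS has an annotated 3′ UTR of 999 bases and does not hold the word.

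By catalytic class, the 18 class I genes had a median log2 difference of -0.016 and the 18 class II genes 0.00069, with NARS, of class II, the only call.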
